A study of Mus musculus with 4 samples.

Results

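Macrophages lacking Hilpda were compared after 12 h and after 24 h of loading with palmitate and oleate. The comparison is the log2 value of the 24 h array minus that of the 12 h array, gene by gene, and it uses 2 of the 4 arrays of the study. The other pair holds wild-type cells at the same times and is set beside it. Both arrays of the comparison come from HilpdaΔMΦ mice (Hilpda knockout), and the wild-type arrays from Hilpdaflox/flox littermates, all 8 to 12 weeks old. Marrow cells were differentiated with 15% L929-conditioned medium, a source of the macrophage growth factor CSF1. They then received 600 µM fatty acids, 1 part palmitate to 2 parts oleate, bound to fatty-acid-free albumin. Every group carries the floxed allele and received the fatty acids. With no unloaded cells in the comparison, time under loading and time in culture cannot be told apart. The labels name neither the Cre line behind ΔMΦ nor the deleted stretch of the gene. Each array holds RNA pooled from 3 samples, so there is 1 value per gene, group and time, no replicate error, and no test.

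HILPDA is a small protein that sits at lipid droplets and inhibits adipose triglyceride lipase, the enzyme that opens the breakdown of stored triglyceride. Macrophages offered free fatty acids store them as triglyceride in droplets, and fatty acids released again can act on nuclear receptors of the PPAR family. CSF1-grown macrophages also divide in culture, take up iron and debris through surface receptors, and adjust sterol synthesis to their sterol supply.

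The knockout pair differed most at 2 ends. The iron exporter gene Slc40a1 and the mannose receptor gene Mrc1 were higher at 24 h by more than 5-fold. The transcription regulator gene Id3 and the fatty acid-binding protein gene Fabp7 were lower by about 4-fold. Among gene lists, mitosis genes were lower at 24 h and DNA replication genes were not. Sterol synthesis genes, interferon-stimulated genes and TGF-beta feedback genes lay mostly below 0, and stromal matrix genes above it. Genes of lipid droplets, triglyceride synthesis and beta-oxidation had medians near 0.

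The promoters of the mitosis genes are shown first, because many of these genes were lower at 24 h together. The cell cycle homology region, TTTGAA, is a promoter element of genes used late in the cell cycle, and CCAAT boxes often lie near it. In each stretch of 120 bases the capitals mark these letters as read on either strand, so that the first element also shows as TTCAAA and the box as ATTGG. The sequences are from RefSeq (assembly GRCm38.p6), run 5′ to 3′ in the direction of the gene and end at or upstream of the annotated start. They belong to a cyclin (Ccnb2), a spindle midzone protein (Prc1), the proliferation marker Ki-67 (Mki67), a cytokinesis regulator (Ect2), a spindle motor (Kif11) and a ubiquitin-conjugating enzyme of mitotic exit (Ube2c). They were chosen from the lower mitosis genes for holding TTTGAA upstream of the start, so its presence here is by choice. Lower genes with no such match or no RefSeq entry were passed over, Plk1 and Aspm among them. Promoters on a single chromosome were left out of this choice as well, whatever their letters.

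Ccnb2, chr9:70421612-70421731, minus strand: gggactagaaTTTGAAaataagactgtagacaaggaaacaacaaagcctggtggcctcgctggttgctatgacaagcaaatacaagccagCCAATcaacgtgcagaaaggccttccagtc
Prc1, chr7:80294356-80294475, plus strand: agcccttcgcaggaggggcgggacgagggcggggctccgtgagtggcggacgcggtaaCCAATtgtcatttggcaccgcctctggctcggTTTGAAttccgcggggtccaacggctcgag
Mki67, chr7:135716380-135716499, minus strand: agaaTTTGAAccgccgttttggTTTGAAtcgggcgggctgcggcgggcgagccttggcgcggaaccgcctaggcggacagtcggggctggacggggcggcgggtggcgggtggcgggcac
Ect2, chr3:27153883-27154002, minus strand: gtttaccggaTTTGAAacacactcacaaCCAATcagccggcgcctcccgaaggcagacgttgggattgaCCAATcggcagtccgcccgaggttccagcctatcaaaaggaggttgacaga
Kif11, chr19:37376262-37376381, plus strand: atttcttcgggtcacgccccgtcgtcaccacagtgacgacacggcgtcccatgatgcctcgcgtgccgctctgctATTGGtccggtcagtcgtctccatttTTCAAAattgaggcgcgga
Ube2c, chr2:164769809-164769928, plus strand: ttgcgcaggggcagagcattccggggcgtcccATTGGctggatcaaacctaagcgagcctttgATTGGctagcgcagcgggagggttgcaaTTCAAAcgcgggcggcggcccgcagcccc

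TTTGAA occurred on either strand in the promoter, 250 bases before to 50 after the start, of 37 of the 54 mitosis genes with a RefSeq entry, or 68.5%. The share was 14.3% over the 10459 genes kept that have an entry and 20.2% over all 27025 genes in the table. CCAAT occurred in the same share of mitosis promoters, 68.5%, against 42.0% and 41.1%. The 37 mitosis genes with TTTGAA had a median 24 h minus 12 h difference of -0.67 in knockout, with 19 lower by 1.5-fold. The 17 without it had a median of -0.28, with 4 lower. Of 33 DNA replication genes 4 held TTTGAA, or 12.1%, while 16 held the E2F site TTTNNCGC, or 48.5% against 9.38% of the genes kept. These matches describe letters in a window and were not tested as sites.

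The second set belongs to antiviral genes that were lower at 24 h and were chosen for holding the marked element upstream of the start. Lower genes with no such match or no RefSeq entry were passed over, Irf7 among them. Here the capitals mark the interferon-stimulated response element, searched as GAAANNGAAA on both strands, overlapping matches joined. Oas1g and Oas3 encode oligoadenylate synthetases, which sense viral RNA, and Ifit3 an antiviral protein that works with IFIT1.

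Oas1g, chr5:120887614-120887733, minus strand: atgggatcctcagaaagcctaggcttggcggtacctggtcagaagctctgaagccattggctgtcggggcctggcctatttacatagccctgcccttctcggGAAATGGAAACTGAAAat
Oas3, chr5:120777660-120777779, minus strand: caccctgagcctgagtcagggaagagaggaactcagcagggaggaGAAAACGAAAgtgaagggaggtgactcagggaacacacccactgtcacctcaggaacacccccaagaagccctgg
Ifit3, chr19:34583397-34583516, plus strand: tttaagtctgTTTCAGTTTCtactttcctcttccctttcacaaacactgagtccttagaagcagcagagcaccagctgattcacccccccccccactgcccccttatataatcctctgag

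This element was found in the promoters of 12 of 19 interferon-stimulated genes, or 63.2%. It was found in 3.63% of the genes kept and in 3.99% of all genes in the table.

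In all, 13354 genes had a mean level past the 40th percentile, a log2 value of 2.44, and their levels on the 2 knockout arrays correlated at 0.991 (Pearson, across genes, which are not independent). Of these genes 407 were higher at 24 h by 1.5-fold (3.05%) and 433 lower (3.24%), together 6.29%. Olfactory, vomeronasal and trace amine receptor genes, which macrophages are not known to use, served as a measure of background signal. Of these 1409 genes 5.89% were past 1.5-fold and 0.213% past 2-fold in the same comparison, and 5.04% past 1.5-fold in wild type. A share of 6.29% is therefore close to that of background signal, and a single dim gene just past 1.5-fold says little. Past 2-fold lay 150 genes, or 1.12%. Past the 60th percentile of level (4.20) lay 9089 genes, of which 209 were higher (2.30%) and 225 lower (2.48%) by 1.5-fold. In wild type 346 of those (3.81%) were higher and 352 (3.87%) lower. Over the genes kept the median difference in knockout was 0.00.

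**Figure D1:**
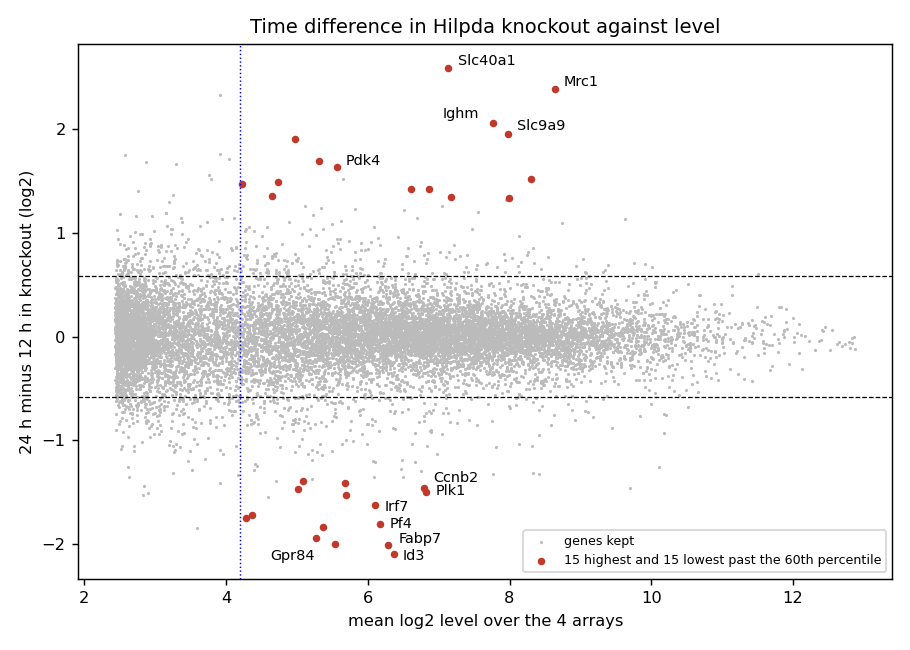
Difference between 24 h and 12 h in knockout (log2, vertical) against the mean log2 level over the 4 arrays (horizontal), 1 point per gene kept; dashed lines mark 1.5-fold, the dotted line the 60th percentile of level, and red points the 15 highest and 15 lowest differences past it. Slc40a1, Mrc1, Ighm and Slc9a9 lie above the cloud at levels over 7, and Id3, Fabp7 and Gpr84 below it at levels near 6.

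Of 20 macrophage identity genes measured, 20 passed the level filter, with a median difference of 0.02. Past 1.5-fold were 15.0% of them, against 6.29% of the genes kept. Adgre4 (1.47) and Cd33 (0.60) were higher and Cx3cr1 (-1.19) was lower. Cd68, a lysosomal glycoprotein, was at 12.16 and 12.18 in knockout at 12 h and 24 h, and Csf1r, the CSF1 receptor, at 11.61 and 11.54. These values go with the labelled cell type. In such bulk samples, fewer cells of a type and less RNA per cell cannot be told apart.

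Hilpda itself was at 5.41 at 12 h and 5.27 at 24 h in knockout, a difference of -0.15, beside 5.93 and 5.47 in wild type. Both knockout values are below both wild-type values, by small amounts, and the gene has 1 probe set whose place relative to the deletion is not given. It is therefore a limited check of the labels. Among reference genes, Actb differed by -0.07 and Gapdh by -0.32 between the knockout arrays.

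The genes highest at 24 h were Slc40a1 and Mrc1. Slc40a1, which encodes ferroportin, the exporter of iron from cells, was at 5.87 in knockout at 12 h and at 8.46 at 24 h, and at 5.55 and 8.68 in wild type. Its difference in knockout, 2.59 or 6.01-fold, was the highest of all genes kept. Mrc1, the mannose receptor, which binds sugar chains on debris and microbes, was at 7.37 and 9.76 in knockout and at 7.11 and 10.31 in wild type, a knockout difference of 2.39 or 5.22-fold. For both genes the 24 h arrays stand above the 12 h arrays in either genotype, with no overlap between times. As both were chosen as the highest in knockout, this follows in part from the choice. Of 219 Slc transporter genes kept, counted after their values were seen, 5 were higher and 12 lower by 1.5-fold in knockout, 7.76% against 6.29% of the genes kept, with a median of 0.00.

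Both 24 h arrays were again the higher ones for the next genes. Slc9a9, an endosomal sodium-proton exchanger, was at 6.86 and 8.81 in knockout, a difference of 1.95, beside 6.85 and 9.39 in wild type. Ednrb, an endothelin receptor, was at 4.10 and 6.0 in knockout, a difference of 1.90, beside 3.51 and 6.30. Man1a, a Golgi mannosidase that trims sugar chains, was at 7.47 and 8.99, a difference of 1.52, beside 7.42 and 9.33. Each had its higher values at 24 h and a smaller difference in knockout than in wild type. Nxpe5 (1.69 in knockout and 2.35 in wild type), the ABC transporter gene Abca9 (1.43 and 1.90), the synapsin gene Syn1 (1.43 and 2.17) and the paired receptor gene Pilra (1.35 and 2.09) followed that pattern. Ighm, the immunoglobulin M heavy chain gene, had a difference of 2.06 from the brightest of its probe sets but 0.20 by the mean over them, so its value depends on the probe set.

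Pdk4 and Tox2, also among the 15 highest, had the larger difference in knockout. Pdk4, the kinase that shuts pyruvate out of the citric acid cycle and a PPAR target, was at 4.49 and 6.13 in knockout, a difference of 1.64, and at 5.32 and 6.29 in wild type, a difference of 0.97. The 24 h values of the genotypes are close, and the knockout value at 12 h is the low one. Tox2, a nuclear protein of the TOX family, was at 4.23 and 5.73 in knockout and at 4.17 and 4.79 in wild type, so its knockout 24 h array is the one that stands apart. The widest gap the other way among the 15 was that of Adgre4. Adgre4, a myeloid adhesion receptor, was at 2.61 and 4.08 in knockout, a difference of 1.47, and at 3.23 and 7.0 in wild type, a difference of 3.77. It was higher at 24 h in both, and its knockout level at 24 h stayed far under that of wild type. Its mean level, 4.23, passed the 60th percentile of level (4.20) only through the wild-type 24 h array. The place of Adgre4 among the 15 thus rests on that array. With 1 array a side none of these differences between genotypes could be tested.

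**Figure D2:**
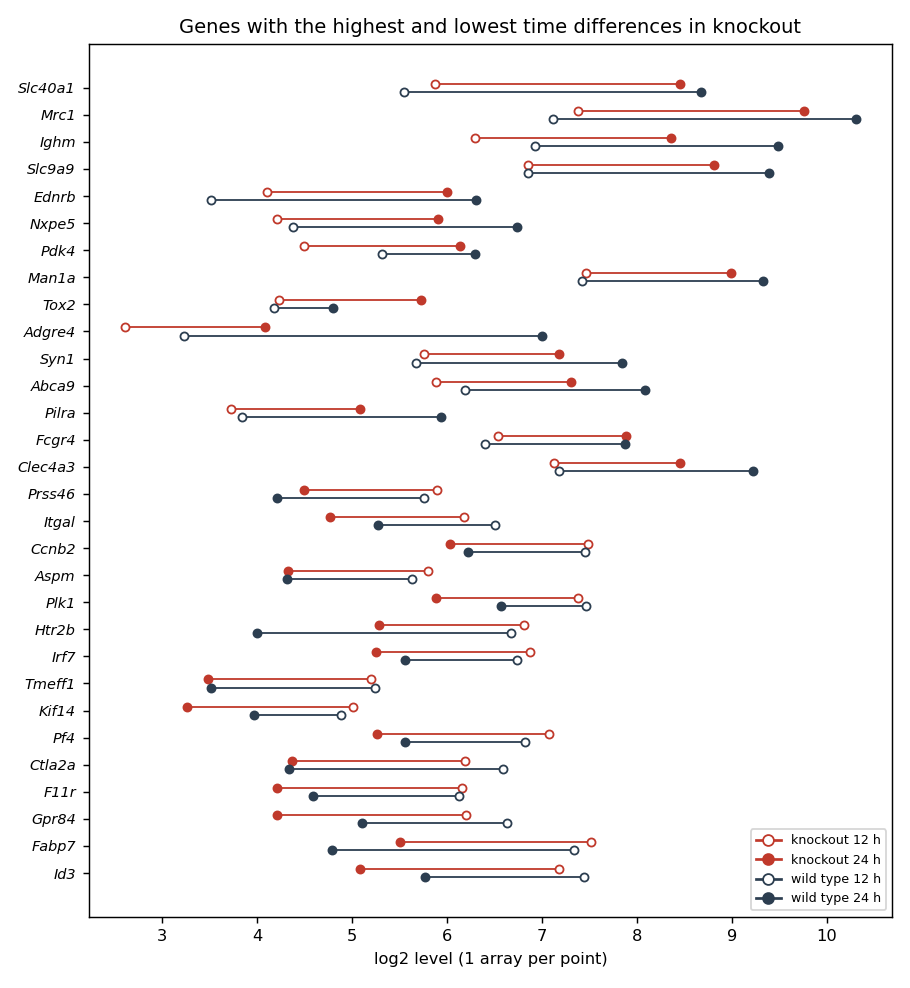
Log2 levels on the 4 arrays (horizontal, 1 array per point) of the 15 genes with the highest and the 15 with the lowest 24 h minus 12 h difference in knockout among genes past the 60th percentile of level; open circles are 12 h, filled circles 24 h, red knockout and dark blue wild type. In all 30 genes the wild-type pair moves to the same side as the knockout pair, with a longer line in wild type for Adgre4 and a shorter one for Tox2 and Pdk4.

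Scavenger and phagocytic receptors, which bind modified lipoproteins, antibody-coated particles and dying cells, were higher at 24 h in part. Of 24 members kept, 6 were higher by 1.5-fold and 1 lower (29.2% past it, against 6.29% of the genes kept), and the median difference was 0.19. Fcgr4, an Fc receptor for immunoglobulin G, was at 6.54 and 7.88 in knockout and at 6.40 and 7.87 in wild type, with knockout and wild type nearly equal at each time. Clec4n, which encodes the lectin Dectin-2, was at 2.61 and 4.17 in knockout and at 3.15 and 5.09 in wild type, its 12 h values being near the level filter. Clec4a2, an inhibitory lectin receptor of myeloid cells, differed by 0.78, the integrin gene Itgax by 0.65 and Clec7a, the beta-glucan receptor Dectin-1, by 0.59. Olr1, a receptor for oxidised low-density lipoprotein, was the member on the lower side, at 3.02 and 2.27. The most abundant members hardly moved: Cd68 by 0.02, Cd36, a fatty acid and lipoprotein receptor, by 0.28, and the integrin gene Itgb2 by -0.01.

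Genes used in alternative activation, the program set off by interleukin 4, went both ways. Of 14 kept, 3 were higher (Mrc1, Clec7a and Fn1, fibronectin, at 0.77) and 2 lower. These are 35.7% past 1.5-fold, against 6.29% of the genes kept. The median was 0.18 in knockout and 0.57 in wild type, where 7 were higher. The lower ones were Klf4, a transcription factor, at 5.10 and 4.25, and Tgm2, transglutaminase 2, at 9.30 and 8.59. Arg1, arginase 1, was at 3.61 and 3.45. The interleukin 4 receptor gene Il4ra differed by 0.17 in knockout and by 0.69 in wild type.

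MHC class II presentation genes, which load and display peptides to helper T cells, were among the lists whose knockout values lay furthest from those in wild type. Of 11 kept, 0 were higher in knockout and 1 was lower (9.09% past 1.5-fold, against 6.29% of the genes kept). The knockout median was 0.06. In wild type 6 were higher and 0 lower, with a median of 0.74. H2-Ab1, a class II beta chain, was at 7.61 and 7.66 in knockout and at 7.49 and 8.53 in wild type. H2-Aa, its alpha chain partner, was at 6.16 and 5.95 in knockout and at 6.02 and 6.87 in wild type. H2-Eb1, a second beta chain, was at 5.36 and 5.95 in knockout and at 5.37 and 6.46 in wild type. For the first 2 of these genes the wild-type 24 h array is the high one and the other 3 lie together, while H2-Eb1 was also higher in knockout, just under 1.5-fold. Cd40, a co-stimulatory receptor, was the lower member at -0.60, a value that did not pass 1.5-fold after median centring or quantile normalization. Toll-like receptors and Cd14 had a median of 0.02 over 15 genes in knockout and 0.29 in wild type. Of these the endosomal DNA sensor Tlr9 was higher at 7.17 and 7.87, and the flagellin receptor Tlr5 at 3.22 and 3.81.

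Iron genes beside ferroportin moved less. Of 14 kept, 2 were higher and 0 lower (14.3% past 1.5-fold, against 6.29% of the genes kept). Above 0 lay 12, and the median was 0.22. Tfrc, the transferrin receptor that brings iron in, was the other one, at 6.98 and 7.65 in knockout and at 7.07 and 7.85 in wild type. Fth1, the ferritin heavy chain that stores iron, was at 12.83 and 12.78. Hmox1, haem oxygenase 1, which frees iron from haem, was at 9.83 and 10.16, a difference of 0.33. Cp, the ferroxidase ceruloplasmin, was at 2.86 and 2.96 in knockout and at 3.01 and 4.70 in wild type, where the 24 h array alone stands out.

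Among the lists, that of mitosis had the most members lower at 24 h. Of 67 kept, 28 were lower at 24 h by 1.5-fold (41.8%, against 3.24% of the genes kept), 0 were higher, 58 lay below 0, and the median was -0.39. The wild-type median was -0.41, with 18 lower and 1 higher, and 14 genes were lower by 1.5-fold in both genotypes. Plk1, a kinase that drives entry into and passage through mitosis, was at 7.38 and 5.89 in knockout, a difference of -1.49, and at 7.47 and 6.57 in wild type. Aspm, a spindle pole protein, was at 5.79 and 4.32 in knockout and at 5.63 and 4.31 in wild type. Ccnb2, cyclin B2, was at 7.48 and 6.03 in knockout and at 7.46 and 6.22 in wild type. The 12 h arrays of the genotypes are close together for these genes, the lowest of the list in knockout, and both 24 h arrays lie below them.

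The next mitosis genes were lower by more in knockout than in wild type. Kif20a, a kinesin of the cleavage furrow, was at 6.95 and 5.67 in knockout and at 6.95 and 6.32 in wild type. Kif18a, a kinesin that aligns chromosomes, was at 4.93 and 3.69 in knockout and at 4.83 and 4.27 in wild type. Prc1, whose promoter is shown above, was at 7.44 and 6.31 in knockout and at 7.37 and 6.78 in wild type, and Mki67 at 8.24 and 7.18 beside 8.18 and 7.62. Close between genotypes at 12 h, these 4 genes had their lowest values in knockout at 24 h. As they were chosen by their low differences in knockout, this follows in part from the choice. Over the list, 43 of 67 genes had the lower difference in knockout, as did 6695 of all 13354 genes kept, and the median gap between genotypes was -0.12. Kif14, a cytokinesis kinesin outside the list, was at 5.01 and 3.26 in knockout and at 4.88 and 3.97 in wild type. Cks2, a small subunit of cyclin-dependent kinases, went against the list in knockout, at 6.10 and 6.42, with 6.17 and 5.03 in wild type, and 3 of its 4 probe sets hold identical values.

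DNA replication and S phase genes did not share that shift. Of 39 kept, 3 were higher and 0 lower, 7.69% past 1.5-fold against 6.29% of the genes kept. Of the 39, 25 lay above 0, and the median was 0.09. Gins2, a subunit of the replicative helicase complex, was at 5.09 and 6.03 in knockout and at 5.64 and 5.50 in wild type. Chaf1a, a chromatin assembly factor, was at 3.91 and 4.60 in knockout and at 5.03 and 4.64 in wild type, and Ung, uracil-DNA glycosylase, at 3.18 and 3.83 beside 3.53 and 3.38. For these 3 genes the knockout 12 h array is the lowest of the 4, and the wild-type difference has the other sign. They were picked as higher in knockout at 24 h, so the low 12 h values follow in part from the choice. Pcna, the sliding clamp of DNA polymerases, was at 10.38 and 10.34, and the helicase subunit gene Mcm6 at 8.41 and 8.29. Replication-dependent histones, of which 16 of 46 listed genes were kept, had a median of 0.22 with 2 higher (H1f5 at 0.70 and H4c14 at 0.71) and 2 lower (H2bc14 at -0.81 and H4c12 at -0.70). Past 1.5-fold were 25.0% of these histone genes. Histone genes are near-identical copies, and an array can mix their signals.

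**Figure D3:**
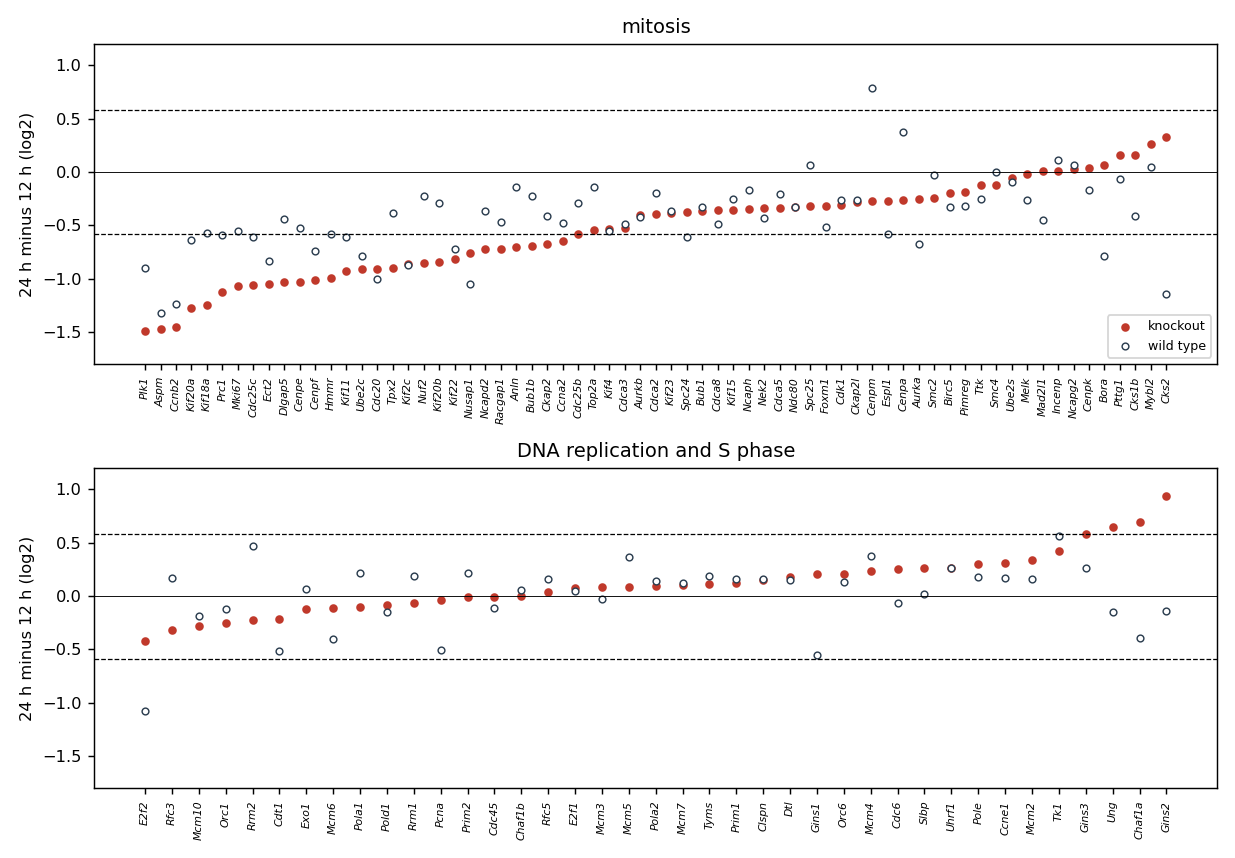
Difference between 24 h and 12 h (log2, vertical) of every member kept of the mitosis list (67 genes, upper panel) and of the DNA replication and S phase list (39 genes, lower panel), ordered by the knockout value; filled red points are knockout, open points wild type, dashed lines 1.5-fold. Plk1, Aspm and Ccnb2 are the lowest mitosis genes in knockout, and most replication genes lie between the dashed lines, with Gins2 the highest in knockout.

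Growth regulators upstream of the cycle were not lower. Of 21 G1 cyclin and growth factor response genes kept, 3 were higher and 0 lower (14.3% past 1.5-fold, against 6.29% of the genes kept). Their median was 0.22. Ccnd2, cyclin D2, which starts the passage out of G1, was at 5.16 and 6.07 in knockout and at 5.65 and 6.71 in wild type. Csf1r was nearly level, as given above, and Spry1, an inhibitor of growth factor signals, was at 2.67 and 3.35. The third, the phosphatase gene Dusp6, had a difference of 0.62, or 0.47 by the mean over its probe sets. Of 23 cell cycle inhibitors and p53 targets kept, 0 were past 1.5-fold in knockout. Cdkn1a, the inhibitor p21, was at 8.69 and 8.50 in knockout and at 8.55 and 9.10 in wild type.

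Cholesterol synthesis genes were mostly below 0. Of 19 kept, 4 were lower and 0 higher (21.1% past 1.5-fold, against 6.29% of the genes kept). A difference below 0 was seen in 18, and the median was -0.43. In wild type 14 were lower and the median was -0.68. Fdps, which makes farnesyl diphosphate, was at 6.90 and 6.18 in knockout and at 7.65 and 6.73 in wild type. Cyp51, the lanosterol demethylase, was at 7.05 and 6.41 in knockout and at 7.79 and 6.55 in wild type, and Fdft1, squalene synthase, at 7.63 and 7.04 beside 8.38 and 7.14. Fdft1 passed 1.5-fold narrowly and did not after median centring, at -0.56, which leaves 3 of the 4. For these enzymes the wild-type 12 h array is the highest of the 4 and the 24 h arrays are closer to each other. Stard4, a sterol carrier, was at 5.72 and 5.08 in knockout and at 5.96 and 5.28 in wild type. The median level of the list was 7.14 and 6.80 in knockout at 12 h and 24 h, and 7.65 and 6.79 in wild type. In 3 of the 19 genes was the knockout difference the lower one. A sterol regulatory element, TCACNCCAC, occurred in the promoters of 1 of 15 members with an entry, or 6.67%, against 1.38% of the genes kept and 1.44% of all in the table. CCAAT occurred in 15 of 15, against 42.0% and 41.1%.

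Fatty acid synthesis genes had a median near 0 in knockout, at -0.10 over 15 genes, with 1 higher and 2 lower by 1.5-fold. Fads2, the delta-6 desaturase, was at 7.31 and 6.61 in knockout and at 7.73 and 7.48 in wild type. Elovl6, an elongase of palmitate, was at 6.32 and 5.73, a difference that did not pass 1.5-fold after median centring. Scd1, which turns stearate into oleate, was on the higher side at 4.47 and 5.08 in knockout and at 5.15 and 6.03 in wild type, with both knockout values below both wild-type values. Abca1, which exports cholesterol and is switched on by LXR, was at 7.19 and 7.99 in knockout, a difference of 0.80, and at 7.22 and 9.31 in wild type, a difference of 2.10. Of the 10 LXR targets kept these last 2 were higher and 0 were lower. Over all genes kept 3.05% were higher and 3.24% lower, together 6.29%. The share past 1.5-fold was above this in the LXR list and in the fatty acid synthesis list.

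Genes that store and burn the fatty acids had few large differences in knockout. Of 14 lipid droplet genes kept, of 15 triglyceride and sterol ester synthesis genes and of 23 beta-oxidation genes, 0 were past 1.5-fold, with medians of 0.07, 0.01 and 0.02. The share over all genes kept is 6.29%, so lists of this size hold few such genes in any case. Plin2, which coats droplets, was at 11.93 and 12.0 in knockout. Pnpla2, adipose triglyceride lipase, was at 9.22 and 9.17. Lipa, the acid lipase of lysosomes, was at 12.44 and 12.53, and Hadha, a subunit of the mitochondrial trifunctional protein, at 9.66 and 9.82. Cpt1a, which admits fatty acids to mitochondria, was at 10.24 and 10.04 in knockout and at 10.28 and 10.08 in wild type. Abhd5, the coactivator of Pnpla2, was at 7.96 and 7.52 in knockout and at 7.85 and 6.92 in wild type, past 1.5-fold in wild type but not in knockout.

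PPAR targets lay slightly above 0, with a median of 0.12 and 14 of 19 above 0, but Pdk4 was the single one past 1.5-fold. Angptl4, an inhibitor of lipoprotein lipase, was at 8.80 and 9.30 in knockout and at 8.78 and 9.13 in wild type, and Pparg at 8.12 and 8.63 beside 7.90 and 8.13. Fabp4, a cytosolic fatty acid carrier, was at 8.70 and 9.03 in knockout and at 8.20 and 7.55 in wild type, so its time difference has opposite signs in the genotypes. Fabp7, another carrier of the family, was at 7.52 and 5.51 in knockout, a difference of -2.01, and at 7.34 and 4.78 in wild type, a difference of -2.55. Fabp7 was thus the outlier of its list: the other 13 uptake and binding genes kept were within 1.5-fold in knockout, with Cd36 at 11.76 and 12.04 and Lpl, lipoprotein lipase, at 11.84 and 11.98. Lysosomal genes had a median of -0.03 over 29 members, with the protease gene Ctsk lower at 5.09 and 4.45. Oxidative phosphorylation genes had a median of -0.02 over 42, of which Cox5b, at -0.67, was at -0.34 by the mean over its probe sets.

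**Figure D4:**
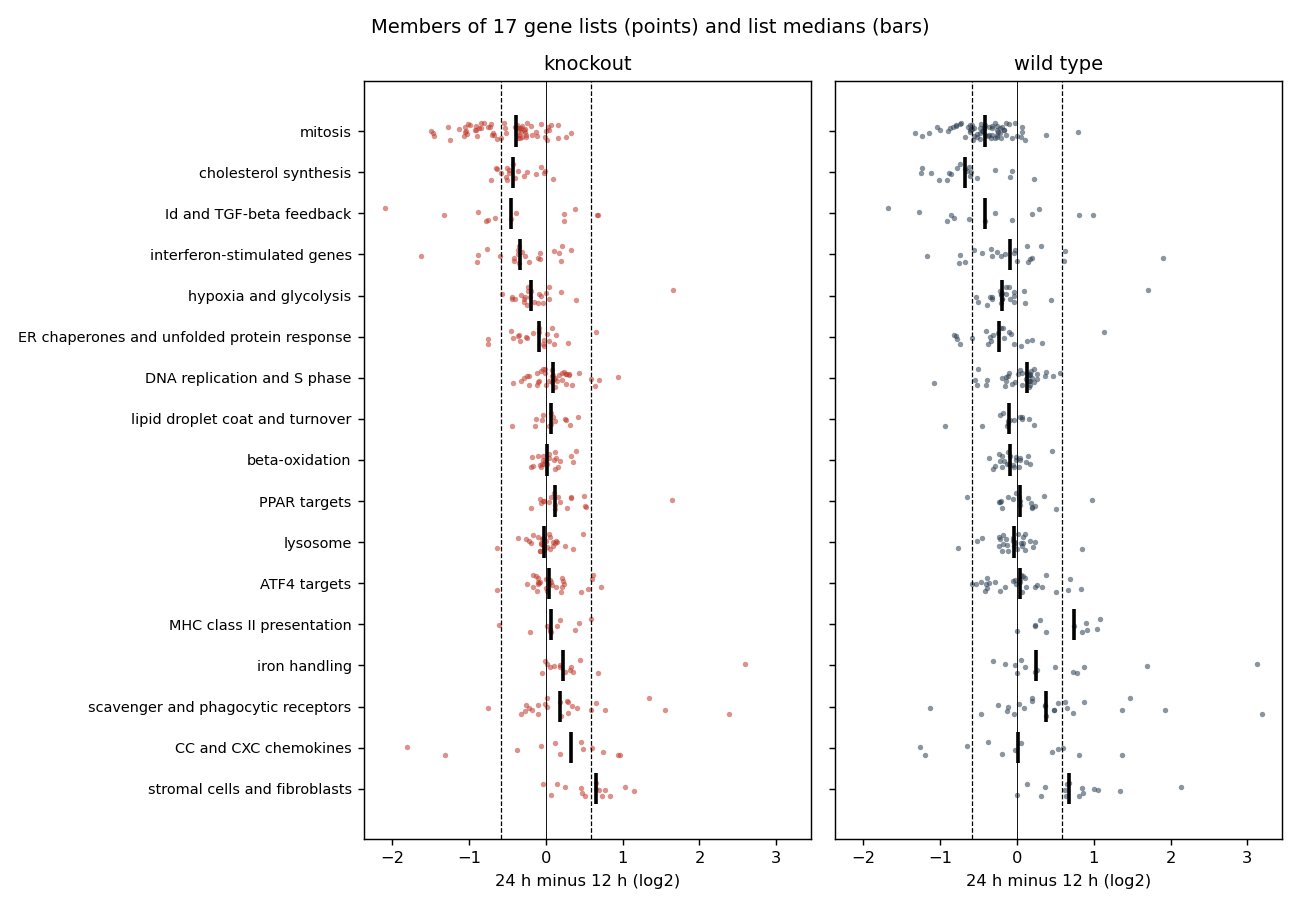
Difference between 24 h and 12 h (log2, horizontal) of the members kept of 17 gene lists, knockout on the left and wild type on the right; points are genes, black bars list medians, dashed lines 1.5-fold. Medians in knockout run from -0.46 for Id and TGF-beta feedback to 0.65 for stromal markers, and the MHC class II bar is at 0.06 in knockout and 0.74 in wild type.

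Interferon-stimulated genes, the antiviral program that follows type I interferon, were lower in part. Of 22 kept, 5 were lower and 0 higher, 22.7% past 1.5-fold against 6.29% of the genes kept. Below 0 were 17, and the median was -0.33 in knockout and -0.09 in wild type. Irf7, the regulator that amplifies interferon output, was at 6.87 and 5.25 in knockout, a difference of -1.63, and at 6.74 and 5.56 in wild type. The genes whose promoters are shown above followed: Oas1g was at 5.33 and 4.43 in knockout and at 5.66 and 4.99 in wild type. Oas3 was at 6.64 and 5.76 beside 6.86 and 6.13, and Ifit3 at 3.91 and 3.14 beside 4.54 and 4.20. The lowest value of each is the knockout 24 h array. Oas2 passed 1.5-fold narrowly at -0.59 and did not after median centring. Bst2, tetherin, was at 9.63 and 9.28, and Rsad2, viperin, at 4.90 and 5.10, so the members did not share a direction.

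Id proteins and TGF-beta feedback genes held the lowest gene of all kept. Of 13 kept, 6 were lower and 2 higher (61.5% past 1.5-fold, against 6.29% of the genes kept). The median was -0.46 in knockout and -0.42 in wild type, and 5 were lower in both. Id3, which blocks helix-loop-helix transcription factors, was at 7.18 and 5.08 in knockout, a difference of -2.10 or 4.29-fold lower, and at 7.44 and 5.77 in wild type. Skil, a repressor of SMAD-driven transcription, was at 8.91 and 7.58 beside 9.0 and 8.15. Smad6 and Smad7, inhibitory SMADs, were at 3.83 and 2.94, and at 4.87 and 4.09, in knockout. For each of these, picked as lower in knockout, the 24 h arrays of both genotypes are below the 12 h arrays. Id2 was at 8.97 and 8.31. Tgfbi, a matrix protein induced by TGF-beta, was at 10.29 and 9.54 in knockout and at 10.54 and 10.48 in wild type, where the knockout 24 h array alone is low. On the higher side were Smad3, at 5.25 and 5.93, and Ltbp1, which stores latent TGF-beta in matrix, at 3.42 and 4.08.

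Chemokine genes split. Of 12 kept, 4 were higher and 2 lower by 1.5-fold in knockout, with a median of 0.32. Over all genes kept 3.05% were higher and 3.24% lower, together 6.29%. Pf4, CXCL4, was at 7.07 and 5.26 in knockout and at 6.82 and 5.56 in wild type, and Cxcl14 at 8.99 and 7.68 beside 8.94 and 7.74. Pf4 also marks megakaryocytes: of 7 erythroid and megakaryocyte markers measured 4 were under the level filter, 1 (Pf4) was lower, and their summed linear level was 167 and 73.9 in knockout and 146 and 84.5 in wild type. The part of such cells was not tested. Ccl6, a chemokine of rodent myeloid cells, was at 7.72 and 8.69 in knockout and at 7.37 and 8.74 in wild type, and Ccl9 at 11.20 and 11.80 beside 11.20 and 11.81. Ccl3, MIP-1 alpha, was at 8.84 and 9.58 beside 8.63 and 9.09, and Ccl2, which draws monocytes, at 2.77 and 3.71 beside 3.27 and 4.08. The 2 CXC genes past 1.5-fold thus had their low values, and the 4 CC genes their high values, at 24 h in both genotypes. Members within 1.5-fold in knockout did not all share this split. In knockout and wild type, Ccl5 differed by -0.07 and -0.65, Ccl4 by 0.46 and -0.38, and Cxcl2 by 0.11 and 0.06. Cxcl16 went with it, at -0.37 and -0.02. Ccl9, Ccl6 and Ccl3 are also consecutive among the genes kept on chromosome 11.

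Other signalling genes at the low end were mostly lower in both genotypes. Gpr84, a receptor for medium-chain fatty acids, was at 6.20 and 4.21 in knockout and at 6.63 and 5.10 in wild type. F11r, junctional adhesion molecule A, was at 6.15 and 4.21 beside 6.13 and 4.59, and Htr2b, a serotonin receptor, at 6.81 and 5.29 beside 6.68 and 4.0. Itgal, the integrin chain of LFA-1, was at 6.18 and 4.77 beside 6.50 and 5.28. In these 4 genes no 24 h value reaches a 12 h value, which follows in part from their choice as the lowest in knockout. Cx3cr1, the fractalkine receptor, differed from them: it was at 6.71 and 5.51 in knockout and at 6.99 and 6.71 in wild type. Ctla2a (-1.83), the serine protease gene Prss46 (-1.40) and Tmeff1 (-1.72, or -0.99 by the mean over its probe sets) complete the low end.

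Inflammatory cytokines and mediators had 2 higher and 2 lower of 17 kept (23.5% past 1.5-fold, against 6.29% of the genes kept). Acod1, which makes itaconate, was at 3.63 and 2.74 in knockout, and Il1rn, the interleukin 1 receptor antagonist, at 5.41 and 4.81, a difference that did not pass 1.5-fold after median centring or quantile normalization. Casp4, an inflammatory caspase, was at 6.07 and 6.72, and Il18 at 5.47 and 6.12. Tnf was at 7.79 and 7.66. Il1b stayed near background in knockout, at 2.32 and 2.59, and was at 2.39 and 4.07 in wild type.

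Endoplasmic reticulum chaperones, which fold secreted proteins, had a median of -0.09 over 22 genes, with 1 higher and 2 lower. That is 13.6% past 1.5-fold, against 6.29% of the genes kept. Hyou1, a chaperone of the HSP70 family, was at 9.09 and 8.34 in knockout and at 8.92 and 8.14 in wild type, and P4hb, protein disulfide isomerase, at 10.57 and 9.82 beside 10.53 and 9.80. The genotypes nearly coincide in these 2 genes. Herpud1, which helps dispose of misfolded proteins, was higher at 7.16 and 7.81 beside 7.0 and 8.13. ATF4 targets, genes of the response to amino acid lack and stress, had a median of 0.04 over 29, with 3 higher (Aldh1l2 at 0.72, the amino acid transporter gene Slc7a5 at 0.61 and Ddit4, an mTORC1 inhibitor, at 0.60) and 1 lower. The lower one was Phgdh, the first enzyme of serine synthesis. It was at 3.14 and 2.50 in knockout and at 2.76 and 3.43 in wild type, with opposite signs. Past 1.5-fold in knockout were 13.8% of the ATF4 targets and 6.29% of the genes kept. Hypoxia and glycolysis genes were below 0 in 19 of 24, with a median of -0.20, but the member past 1.5-fold lay on the higher side: Adm, adrenomedullin, at 2.15 and 3.81 in knockout and at 2.75 and 4.46 in wild type. Pgk1 and Pkm, glycolytic enzymes, were at 10.16 and 9.90, and at 11.37 and 11.18. Of 22 redox genes of the NRF2 list, Gsr, glutathione reductase, was higher at 7.65 and 8.39 and 0 were lower, 4.55% past 1.5-fold.

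Clock genes had 3 higher and 1 lower of 16 kept (25.0% past 1.5-fold, against 6.29% of the genes kept). Nr1d1, the repressor REV-ERB alpha, was at 4.93 and 6.01 in knockout and at 5.0 and 6.06 in wild type. Dbp, a factor of the clock output, was at 6.31 and 7.04 beside 5.94 and 7.31, and Npas2, a partner of BMAL1, at 5.26 and 5.88 beside 5.36 and 5.60. Cry1, a clock repressor, was at 5.01 and 4.33 beside 5.07 and 3.49. The first 3 were higher and Cry1 lower at 24 h in each genotype. Bcl2a1a, a survival gene, was at 4.37 and 5.05, but its near-identical copies can share signal.

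Markers of stromal cells, which can persist in marrow cultures, were higher at 24 h. Of 17 measured, 15 were kept, 8 of them higher and 0 lower (53.3% past 1.5-fold, against 6.29% of the genes kept). The median was 0.65 in knockout and 0.68 in wild type. Lum and Thy1 were under the level filter, and of the 8 Col6a1 (0.73) was at 0.35 by the mean over its probe sets. The summed linear level of the list was 1488 and 2316 in knockout at 12 h and 24 h, and 2104 and 3589 in wild type. Postn, periostin, was at 5.76 and 6.90 in knockout and at 6.38 and 7.72 in wild type, and Bgn, biglycan, at 9.31 and 10.01 beside 9.85 and 10.48. Col1a1, the main collagen chain, was at 7.49 and 8.00 beside 8.07 and 8.87. Each knockout value is below the wild-type value of the same time. Smooth and skeletal muscle genes had 5 higher of 11 kept (45.5% past 1.5-fold) and a median of 0.49 in knockout and -0.10 in wild type. Their summed linear level was higher at 24 h in both genotypes, at 458 and 709 in knockout and at 625 and 1075 in wild type. Acta2, smooth muscle actin, was at 8.28 and 8.96 in knockout and at 8.84 and 9.65 in wild type. Myh4, a fast skeletal myosin, was at 1.97 and 3.72 in knockout and at 2.46 and 2.16 in wild type, so the knockout 24 h array stands alone. Its mean level, 2.58, passed the level filter of 2.44 through that array, so this is in part built into the choice. Fn1, Tgfbi and Ltbp1 above, and the dim collagen gene Col8a1 (2.98 and 4.69), are matrix genes too. The part of stromal or muscle cells in these differences was not tested.

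Markers of other blood and tissue cells were in part at background. Under the level filter were 12 of 16 neutrophil markers (S100a8, S100a9, Elane and Mpo among them), 10 of 11 of mast cells, 7 of 11 of T and NK cells (Cd3e and Cd3d among them), 4 of 9 of B cells, 6 of 10 of endothelial cells and 7 of 7 of adipocytes. The summed linear level of neutrophil markers was 340 at 12 h and 289 at 24 h in knockout, and that of B cell markers, led by Ighm and Blnk, 698 and 1052. That of T and NK cell markers was 1520 and 1517, led by the interleukin 7 receptor gene Il7r at 10.52 at both times. Of 11 dendritic cell markers 4 were under the filter, and their sum was 1412 and 1245, led by Bst2 and Irf8 (8.78 and 8.91), which other cells use too. Mmp8, a collagenase of neutrophils, was the neutrophil marker past 1.5-fold, at 5.05 and 3.71 in knockout and at 4.51 and 3.38 in wild type. Of 10 osteoclast markers kept, Ctsk was lower and 0 were higher.

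The knockout and wild-type time differences use no array in common, so they can be set against each other. Over the genes kept they correlated at 0.42 (Pearson) and 0.30 (Spearman), as a description across genes that share the arrays. In 5 equal bins of level, from dim to bright, Pearson's r was 0.08, 0.34, 0.55, 0.62 and 0.73. Over the 1409 receptor genes it was -0.00. The likeness between genotypes was thus seen in bright genes and not in background signal. Higher by 1.5-fold in both were 177 genes, 43.5% of the knockout list and 28.1% of the 631 in the wild-type list. Lower in both were 149, or 34.4% of the knockout list and 27.9% of the 535 in wild type. The 326 genes together are 2.44% of the genes kept. Past the 60th percentile of level the shares of the knockout list were 61.2% and 51.1%.

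Differences had a smaller spread in knockout. In wild type 631 genes (4.73%) were higher and 535 (4.01%) lower, together 8.73%. The genes of the wild-type higher list had a median of 0.79 there and 0.34 in knockout, and those of the lower list -0.77 and -0.33. Each list has its larger median in the pair that chose it: the knockout lists had medians of 0.73 and -0.73 in knockout and of 0.46 and -0.35 in wild type. The SD of the differences, which uses no such choice, was 0.310 in knockout and 0.361 in wild type over the genes kept, and 0.287 and 0.288 over the receptor genes. Whether the genotypes differ in this was not tested, there being 1 array per group.

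**Figure D5:**
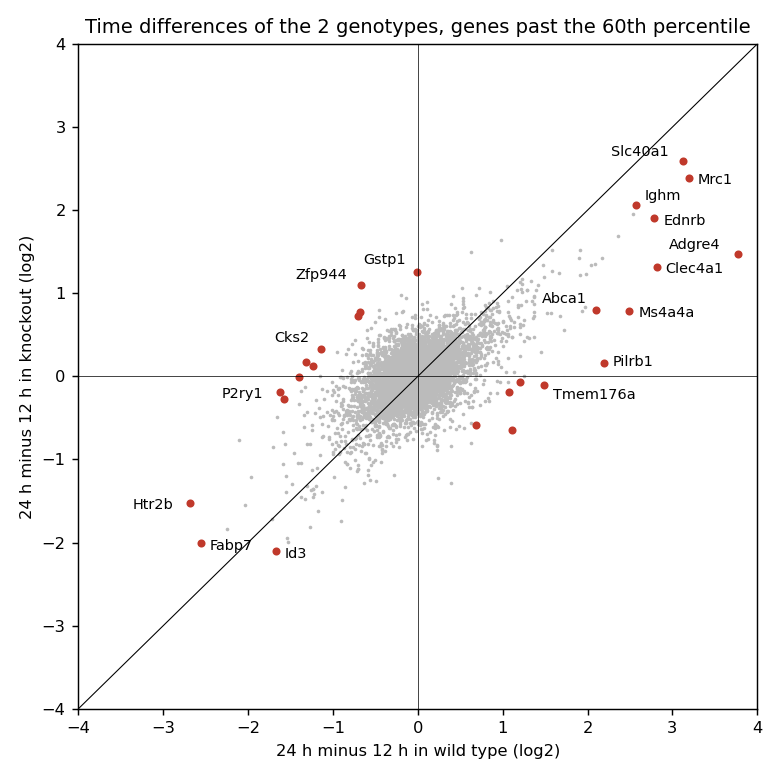
Difference between 24 h and 12 h in knockout (log2, vertical) against that in wild type (horizontal) for the 9089 genes past the 60th percentile of level, with the line of equal values; red points are genes with the largest gaps between genotypes and 7 genes high or low in both. Slc40a1 and Mrc1 lie somewhat below the line at the upper right, Adgre4, Pilrb1 and Ms4a4a far below it, and Gstp1 and Zfp944 above it.

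Of the genes farthest from equal values, 10 were named in each direction. The 10 with the lower difference in knockout had their highest value on the wild-type 24 h array. Adgre4, Itga11 and Pilrb1 among them passed the 60th percentile of level (4.20) only through that array. Their high values there are thus in part built into the choice, and choosing genes by the gap favours such values in general. Ms4a4a, a four-pass membrane protein of macrophages, was at 5.75 and 6.54 in knockout and at 5.68 and 8.17 in wild type. Clec4a1 was at 6.98 and 8.30 in knockout and at 6.86 and 9.67 in wild type, with near-identical relatives such as Clec4a3 (7.12 and 8.46, beside 7.17 and 9.22). Pilrb1, an activating paired receptor, was at 3.89 and 4.06 beside 3.90 and 6.09, and Tmem176a at 5.14 and 5.04 beside 5.36 and 6.84. At 12 h the genotypes were close for these genes, and at 24 h wild type was the higher. In the other direction the wild-type 24 h array was the lowest of the 4 for Cks2, Fat3, Nme1, P2ry1, Ppp1r2, Rab26os and Yae1d1. Yae1d1 was at 7.04 and 7.03 in knockout and at 7.06 and 5.66 in wild type by the brighter of its 2 probe sets. The other probe set of Yae1d1 was at 6.05 and 5.95 in knockout and at 6.05 and 6.01 in wild type, without that gap. Nme1, a nucleoside diphosphate kinase, was at 5.35 and 5.48 beside 6.17 and 4.93. Gstp1, a glutathione transferase, was at 6.42 and 7.68 in knockout and at 7.06 and 7.05 in wild type. P2ry1, a receptor for ADP, was at 7.0 and 6.81 in knockout and at 6.94 and 5.31 in wild type. The gap of Gstp1 thus rests on both knockout arrays, and that of P2ry1 on the wild-type 24 h array.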

How the data were processed

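Total RNA of 4 pools was measured on Affymetrix whole-transcript arrays, 1 array per group, with groups taken from the genotype and incubation time in the labels. The deposited table holds log2 values. The submitters' processing notes name RMA as the authors' method, without a version. RMA quantile-normalizes arrays, so a change common to all transcripts cannot be seen. Of 41345 probe sets, 23521 carried 1 symbol in the platform annotation, 1814 several and 16010 none. Only the first were used. For the 1082 of 22180 genes with several probe sets, the one of highest mean level was taken. Genes at or above the 40th percentile of mean level over probe sets were kept. Of the gene symbols 22139 matched RefSeq (GRCm38.p6), which also gave the promoters. RNA integrity numbers exceeded 8.0, per the labels.

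Differences are log2, and 1.5-fold is 0.585. With 1 array a side there was no test, and the number of arrays limits the precision. The samples pooled are not stated to be separate cultures.

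Named genes were Hilpda, Actb and Gapdh, the 15 highest and 15 lowest differences past the 60th percentile and the 10 highest and lowest of dimmer genes. Up to 8 members past 1.5-fold and 4 of largest level came from each of 51 lists (1012 genes, 788 kept), with the leading genes shared between genotypes or differing between them. Names of clones, predicted genes and small RNAs were skipped. Other genes, such as Ect2, Kif11, Abhd5 and Fabp4, were chosen as examples once their values had been seen. The members, lists and 8 motifs were chosen with earlier results of these data known. Alternatives were the mean over probe sets, loess (span 0.3), quantile normalization, median centring, fold rules of 1.3 and 2 and other level filters. Python 3.11.15, numpy 2.4.6, pandas 2.3.3 and statsmodels 0.14.6 were used, and the steps were tested on simulated data.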

Additional observations from a re-analysis of the deposited data

Results flagged for a closer look

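6 of the genes named had a time difference past 1.5-fold in opposite directions in knockout and wild type. The difference between the genotypes was not tested, with 1 array per group. Acta1, skeletal muscle actin, was at 0.67 in knockout and -0.69 in wild type. Arl16, a small GTPase of the ARF family, was at 0.78 and -0.68. The zinc finger gene Zfp944 was at 1.11 and -0.67, and Ppp1r2, an inhibitor of protein phosphatase 1, at 0.72 and -0.70. Lower in knockout and higher in wild type were Phgdh, at -0.64 and 0.67, and the olfactory receptor gene Olfr1360, at -0.64 and 1.11. Olfr1360 belongs to the genes used as a measure of background signal. Acta1 and Phgdh were dim, with mean levels of 3.07 and 2.96. Over all genes kept, leaving out clone, predicted-gene and small RNA names, 12 genes went opposite ways past 1.5-fold, 5 of them higher and 7 lower in knockout. With those names, 13 of the 407 genes higher in knockout were lower by 1.5-fold in wild type, and 177 were higher. Of the 433 lower in knockout, 9 were higher by 1.5-fold in wild type and 149 were lower.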

How the results depend on the processing

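No named difference past 1.5-fold changed sign under the scalings or the probe-set mean, and the correlation stayed above 0 under these and the level filters. Values near 0 did change sign under at least 1 of them: the knockout medians of fatty acid uptake, beta-oxidation, LXR, oxidative phosphorylation, lysosome, chemokine receptor and ceramide genes, and single genes such as Itgb2, Pcna, Fth1, Il7r, Irf8 and Yae1d1. Fold rules were run on the 4 counts of genes alone. More genes were higher than lower in wild type, 631 against 535, but not past the 60th percentile. Past the 60th percentile of level, 209 genes were higher and 225 lower in knockout, and 346 and 352 in wild type. With a fold rule of 1.3, genes higher at 24 h in knockout numbered 1111, genes lower at 24 h in knockout 1131, genes higher at 24 h in wild type 1386 and genes lower at 24 h in wild type 1342. With a rule of 2 they numbered 67, 83, 150 and 110. The correlation of the 2 time differences was 0.30 with no level filter and 0.58 past the 60th percentile. At that filter the median in knockout was -0.46 for mitosis genes, -0.56 for Id and TGF-beta feedback genes and 0.49 for stromal markers, the last being 0.51 with no filter and 0.51 by the mean over probe sets. The median of all genes stayed within 0.1 of 0 under each scaling, with changes of sign: in knockout it was -0.0008 after loess, and in wild type 0.0092 after quantile normalization. Of 145 named genes past 1.5-fold, those no longer past it numbered 5 after median centring (Cd40, Elovl6, Fdft1, Il1rn and Oas2), 2 after quantile normalization (Cd40 and Il1rn), 0 after loess and 4 by the mean over probe sets (Col6a1, Cox5b, Dusp6 and Ighm). Leaving out the stromal and muscle markers, added after seeing the data, removes too few genes to move the counts and shows nothing about other genes of such cells. No paired analysis was possible because each group has 1 array, which also left no replicate to leave out. Dim genes are limited by signal over background: between the 40th and 60th percentile the differences of the genotypes correlated at 0.18.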

Other observations

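Gene families picked after their values were seen add a few groups to those above, counted over their members kept. Of 9 C-type lectins of the Clec4 family 5 were higher at 24 h in knockout and 0 lower, with a median of 0.78, where over all genes kept 3.05% were higher and 3.24% lower, and all 9 had a smaller difference in knockout than in wild type, where the median was 1.17. Among them Clec4b1 was at 2.90 and 3.75, a difference of 0.85. Of 10 Ms4a genes 2 were higher in knockout, Ms4a4a and Ms4a6b (4.54 and 5.38), against 6 in wild type, with medians of 0.29 and 0.91. Of 9 Cd300 receptors, which regulate myeloid cells, 8 lay above 0 in knockout: Cd300e was at 4.93 and 6.17 and the lower one, Cd300lf, at 5.54 and 4.63. Of 8 Abca transporters kept, Abca9, Abca1 and Abca6 (2.75 and 3.46) were higher. The peroxidase genes Gpx3 and Gpx8 were at 4.59 and 5.32, and at 4.28 and 4.90, while Gpx1 was at 10.08 and 10.06. Of 31 kinesins kept, 9 were lower and 1 was higher in knockout. Their relation to one another was not tested.

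Besides the Ccl genes on chromosome 11, 3 other runs of 3 consecutive genes kept were past 1.5-fold on the same side in knockout. Clec4b1, Clec4a2 and Clec4n on chromosome 6 were higher by 0.85, 0.78 and 1.56. On chromosome 5, Abcg3, Gbp9 and Gbp10 were higher by 1.13, 1.06 and 0.64, and of these Gbp10 was at -0.48 in wild type. On chromosome 13, Olfr1360, H2bc14 and H4c12 were lower, at -0.64, -0.81 and -0.70, and in wild type they were at 1.11, -0.06 and 0.20. Neighbouring copies of a family can share signal on an array.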
